A study of Mus musculus with 10 samples.

Results

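Basal keratinocytes of newborn mice that carry progerin were compared with those of wild type mice, across every gene measured above a fixed level. Progerin is the truncated lamin A that causes Hutchinson-Gilford progeria syndrome (HGPS). The comparison holds 9347 members of 11316 loci in the basal table: those of status OK whose higher group level was at least 5. Of these, 9015 name 1 gene symbol and 332 are merged loci that name several symbols. The 26 loci left out for their status are flagged HIDATA, a locus too deep for the authors' program to quantify. Just inside the minimum lay Fzd2 with levels of 5.01 in wild type and 2.21 in progerin cells, and just outside it Gm11442 with 4.996 and 4.00.

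All mice were of the inbred strain FVB/N and were sampled on postnatal day 4, when skin keratinocytes were isolated and sorted by flow cytometry. The basal groups hold 3 wild type samples and 2 samples of bitransgenic HGPS mice, which the labels abbreviate as BT. A suprabasal fraction of the same kind (3 wild type and 2 BT samples) serves here only to show where basal cells differ. The labels give neither the promoter that drives the transgenes, nor the sex of the animals, nor whether a sample is 1 animal. The authors deposited 1 value per group, read as FPKM (sequenced fragments scaled by transcript length and library size), so no spread between samples and no sequencing depth can be given.

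Each change is printed as a log2 fold change, the log2 of the BT level over the wild type level, so a negative value means a lower level in BT cells. The ± beside it is a standard error (SE) implied by the p-value in the authors' deposited table. That SE is an upper bound for the genes at the table's smallest p, 5e-05. For ranks and medians over many genes the log2 ratio is used, which is log2((BT + 1)/(wild type + 1)) and shrinks the change of low genes. Where a pair of levels is printed, the first is wild type and the second BT. A gene is called, and said to have risen or fallen, when the q-value (adjusted p) in the authors' deposited table was under 0.05.

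The basal layer is the dividing layer of the epidermis. Its cells hold on to the basement membrane through integrins and hemidesmosomes, express the keratins Krt5, Krt14 and Krt15, and leave the layer when they begin to differentiate. Lamin A forms part of the meshwork under the inner nuclear membrane, and progerin stays anchored to that membrane because a processing step that removes its lipid tail is lost. The defining markers of basal cells were all abundant. Itga6, the alpha subunit of the hemidesmosome integrin, had 241 and 219.5 FPKM, its partner Itgb4 164 and 103 FPKM, and the hemidesmosome collagen Col17a1 373 and 237 FPKM, and none of these was called. The fourth marker, the keratin Krt15, fell from 1602 to 308 FPKM (log2 fold change -2.38 ± 0.71), a call lost under both other adjustments given below. In wild type suprabasal cells, Itga6, Itgb4, Col17a1 and Krt15 had 106, 62.5, 145 and 1025 FPKM. The abundance of these markers alone therefore does not set the basal sort apart. In sorted bulk cells, fewer cells of a type and less RNA per cell cannot be told apart.

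Sequences are shown for 2 of the results. The first is the locus of the microRNA Mir203, which fell. In skin, miR-203 is known as the microRNA that restrains the basal factor p63 as cells leave the basal layer. RefSeq (GRCm38.p6) gives its 2 mature arms as follows, 5′ to 3′, with the seed (bases 2 to 8) in capitals; the seeds of the arms differ.
mmu-miR-203-5p: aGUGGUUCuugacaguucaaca
mmu-miR-203-3p: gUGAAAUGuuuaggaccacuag
They lie at chr12:112130889-112130910 and chr12:112130927-112130948 on the plus strand, inside the 76-base hairpin. The measured locus, chr12:112130745-112132334, extends past that hairpin on both sides and stood at 17.3 FPKM in wild type and 3.18 in BT cells (-2.45 ± 0.83). The q-value of that fall was 0.0449, and the call was lost under both other adjustments given below. Its value counts RNA fragments from the locus and is not a level of the mature microRNA. Trp63, the gene of p63, had 210.2 and 197 FPKM and was not called.

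The second is the pair of metallothionein genes Mt2 and Mt1, which lie next to each other on chromosome 8 and fell together. Metallothioneins bind zinc and copper, and the factor MTF1 switches them on through metal response elements. The 250 bases before each RefSeq start (GRCm38.p6, plus strand) are shown because both genes moved together, with every match to the metal response element core in capitals.
Mt1, chr8:94178839-94179088: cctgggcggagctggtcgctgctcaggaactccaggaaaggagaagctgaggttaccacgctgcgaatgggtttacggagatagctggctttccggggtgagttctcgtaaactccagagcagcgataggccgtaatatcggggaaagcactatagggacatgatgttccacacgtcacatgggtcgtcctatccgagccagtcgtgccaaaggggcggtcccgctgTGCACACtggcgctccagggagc
Mt2, chr8:94172368-94172617: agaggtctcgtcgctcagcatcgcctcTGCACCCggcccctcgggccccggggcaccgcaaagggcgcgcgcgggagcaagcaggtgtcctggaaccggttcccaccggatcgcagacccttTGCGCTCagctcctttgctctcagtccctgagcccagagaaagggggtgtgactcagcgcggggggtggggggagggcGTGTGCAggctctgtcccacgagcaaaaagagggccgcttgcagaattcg
The core was searched as TGCACNC or TGCGCNC on both strands, in windows that run 50 bases past the start. Mt1 held 3 matches, 1 of them in the stretch shown, and Mt2 held 4, of which 3 are shown. A single match is common: 25.7% of 32851 RefSeq mouse promoters of 300 bases held at least 1, as did 36.7% of the 8044 promoters of member genes and 44.6% of the 166 promoters of genes that fell. At least 3 matches, as in Mt1 and Mt2, were found in 1.97%, 3.51% and 10.2% of these. The last set includes Mt1 and Mt2 themselves. 4 other motifs were searched in the same way. The serum response (CArG) box was in 1.63% of all promoters, 1.39% of those of member genes and 1.81% of those of genes that fell. For the cAMP element TGACGTCA these shares were 1.79%, 3.18% and 2.41%. For the AP-1 site TGANTCA they were 7.81%, 4.82% and 5.42%, and for the heat shock core GAANNTTC 7.86%, 5.46% and 6.02%. None of these 4 was found in the promoter windows examined for Fos, Fosb, Junb, Klf2, Klf6 or Dnajb1, and Mt2 held 1 AP-1 site. For Dnajb1, 1 of 2 listed promoters was examined. Sites more than 250 bases before the start were not searched. The metal response core was found once each in the windows of Junb and Klf2. Of 172 called single-symbol genes, 131 had a promoter in the table.

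Far more genes fell than rose in basal cells. Of the 9347 members, 177 (1.89%) were called: 148 fell (1.58%) and 29 rose (0.31%), so 83.6% of calls were lower in BT. The q-values of the authors' deposited table are smaller than a Benjamini-Hochberg adjustment of their p-values over the 11290 basal loci of status OK would give. With that adjustment 62 genes passed, 51 lower and 11 higher. With the fold changes also centred on the median of expressed genes (-0.11), 40 passed, 26 lower and 14 higher, so the share of lower calls went from 83.6% to 65.0%. All 62 and all 40 were among the 177, and 37 passed both. These are called the adjustment over the OK loci and the centred adjustment in what follows.

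Most members changed little. The median log2 ratio was -0.10 with quartiles of -0.42 and 0.18, 59.4% of members lay below 0, the share against which the counts below 0 in the gene lists stand, and 91.4% of members lay within 1 of zero. A log2 ratio of -1 or less was found for 627 members (6.71%) and of 1 or more for 174 (1.86%). Of these, 118 and 23 were called. The smallest absolute log2 ratio of a called gene was 0.77. The median shifted with level: it was -0.56 for the 547 members with a mean under 5 FPKM, -0.18 from 5 to 10, 0.02 from 50 to 100 and -0.25 for the 51 members at 1000 or more. Members of the lowest bin passed the minimum through 1 group only, a selection that favours ratios away from 0. Of these 547, 144 had a log2 ratio of -1 or less and 36 of 1 or more. In the scatter of the group levels, called genes lie at levels from under 10 to over 1000 FPKM.

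**Figure D1:**
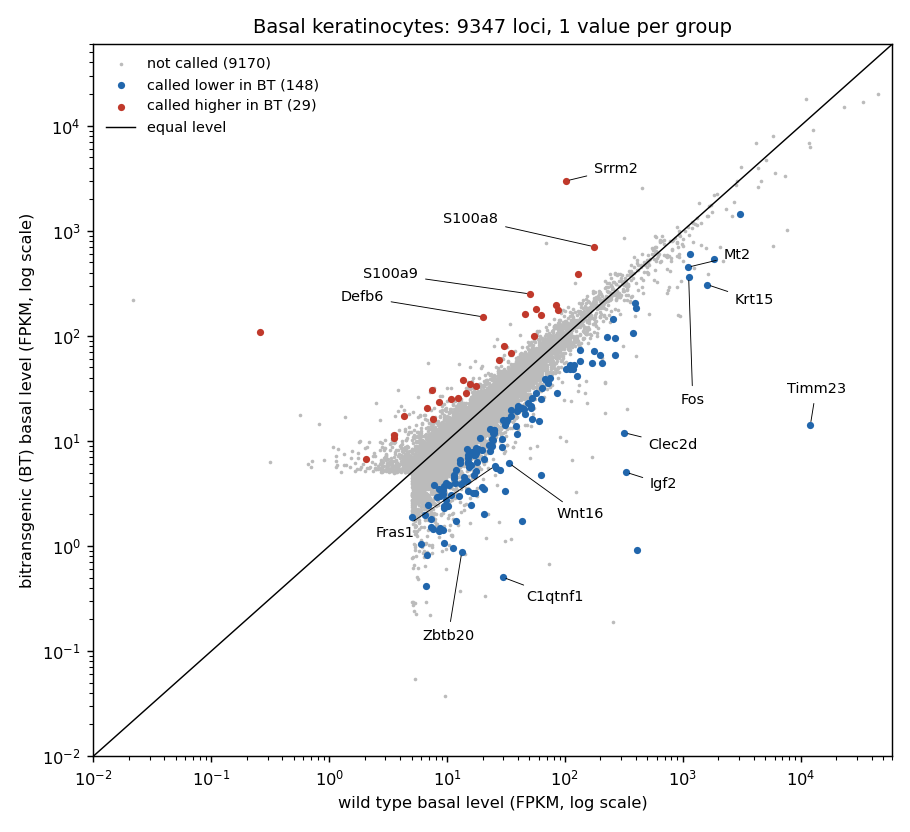
Level of each of the 9347 basal loci in wild type (x axis) and BT cells (y axis), both in FPKM on log scales, with 1 point per locus and a line at equal levels. Blue points are the 148 loci called lower, red points the 29 called higher and grey points the rest; Timm23, Igf2 and C1qtnf1 lie farthest below the line among the labelled genes and Srrm2 farthest above it.

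Genes of the insulin-like growth factor (IGF) pathway had the lowest median among the gene lists with at least 10 members, and 4 of its 13 members fell while none rose. Igf2, a growth factor of fetal and newborn tissue, went from 329 to 5.03 FPKM (-6.03 ± 1.49). The binding proteins that hold IGFs outside the cell fell with it: Igfbp3 went from 30.8 to 3.30 FPKM (-3.22 ± 0.79) and Igfbp5 from 6.06 to 1.04 FPKM (-2.54 ± 0.63). Irs1, the adaptor that passes the signal on from the receptor, went from 14.9 to 6.13 FPKM (-1.28 ± 0.32). All 4 passed the adjustment over the OK loci, and in the centred adjustment all but Irs1 did. The list median was -1.16, against -0.10 for all members, and 12 of 13 lay below 0. With 5 FPKM required in both groups, the median was -0.55 and 2 of the 4 were still counted, since the BT levels of Igfbp3 and Igfbp5 are under 5.

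The rest of the pathway was not called. The merged locus of H19 and Mir675, which neighbours Igf2 and is imprinted with it, had 5771 and 711 FPKM (-3.02 ± 1.14). Igfbp2 had 154 and 111 FPKM and Irs2 18.8 and 13.3 FPKM, while Igfbp4 had 17.9 and 11.2 FPKM. Of the receptors, Igf1r had 10.0 and 8.28 FPKM and Insr 7.75 and 3.74 FPKM, values chosen after they were seen. The cation-independent mannose 6-phosphate receptor gene Igf2r, which clears IGF2, was the one member above 0, with 10.7 and 11.5 FPKM. Peg3, another imprinted gene, fell from 23.9 to 10.3 FPKM (-1.21 ± 0.30), a call lost in the centred adjustment. The 10 imprinted genes measured had a median of -0.71, with Igf2 and Peg3 the called members, and these lists share Igf2, Igf2r, Grb10 and the H19 locus.

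Downstream of the insulin and IGF receptors, 4 of 25 genes of the PI3K and FoxO pathway fell and none rose (median -0.38), a list written after the called genes were known. Besides Irs1 these were Pik3r1, the regulatory subunit of PI3-kinase (24.6 and 10.2 FPKM, -1.28 ± 0.32), Foxo1, a transcription factor that insulin signalling keeps out of the nucleus (15.1 and 6.30 FPKM, -1.26 ± 0.33), and Txnip, which restrains glucose uptake and thioredoxin (51.4 and 21.4 FPKM, -1.26 ± 0.31). Of the kinases in the list, Akt1 had 69.8 and 53.2 FPKM, Pdpk1 24.3 and 27.0 FPKM and Rps6kb1 43.6 and 45.6 FPKM, none of them called. All 4 called genes passed the adjustment over the OK loci, and none of them passed the centred adjustment (adjusted p of 0.0522 for Irs1, Pik3r1 and Txnip and 0.0949 for Foxo1).

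Extracellular matrix genes mostly had lower BT levels: 31 of 33 members of the collagen and glycoprotein list lay below 0, with a median of -0.73, and 7 fell while none rose. Keratinocytes make much of the basement membrane they rest on. Fras1 and Frem2, which form one complex in the basement membrane of young skin, went from 25.5 to 5.77 FPKM (-2.14 ± 0.53) and from 23.2 to 12.9 FPKM (-0.85 ± 0.29). The type IV collagen chains Col4a6 and Col4a5, whose genes lie head to head on the X chromosome, went from 13.9 to 4.16 FPKM (-1.74 ± 0.43) and from 12.9 to 6.13 FPKM (-1.07 ± 0.33). Col4a6 has a second row in the table, with 7.93 and 3.01 FPKM, that was not called. The proteoglycan Vcan went from 10.1 to 2.40 FPKM, the TGF-beta binding protein Ltbp4 from 62.9 to 25.1 FPKM, and the adhesive glycoprotein Thbs1 from 69.4 to 38.1 FPKM. After the adjustment over the OK loci, Fras1 and Col4a6 passed and the other 5 did not, and the same 2 passed the centred adjustment.

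The most abundant matrix genes that were not called also had lower BT levels. Col17a1 is given above, and Postn (periostin) had 291 and 161 FPKM (-0.86 ± 0.32), Sparc 179 and 135 FPKM and Tnc (tenascin C) 72.7 and 59.9 FPKM. Among extracellular proteases, Adamts1 fell from 51.1 to 20.5 FPKM (-1.32 ± 0.33), and outside the list Adamts14, which trims procollagens, fell from 20.7 to 3.52 FPKM (-2.56 ± 0.63). P4ha2, a prolyl hydroxylase that collagen chains need, fell from 9.40 to 2.39 FPKM (-1.97 ± 0.59). Of these 3, Adamts14 passed both other adjustments, Adamts1 passed the one over the OK loci alone and P4ha2 neither. In the list of hemidesmosome and integrin genes none of 23 was called, although 20 lay below 0 and the median was -0.40. Its most abundant members besides the markers were Dst, with 175 and 108 FPKM, and Bcam, with 165 and 101 FPKM. Of 17 fibroblast markers listed, 5 were members (Thy1, Fbln1, Dcn, Vim and Col6a1) and the other 12, among them the collagen genes Col1a1 and Col1a2, were under the minimum or not among the loci tested. Their summed level was 79.2 FPKM in wild type and 99.3 in BT cells, with none called. Thy1 (28.7 and 51.9 FPKM), Fbln1 (33.1 and 35.7 FPKM) and Vim (2.32 and 6.24 FPKM) had the higher BT level. Dcn (9.65 and 5.31 FPKM) and Col6a1 (5.41 and 0.224 FPKM) had the lower one, and Col6a1, which is also in the matrix list, had the lowest log2 ratio of both lists (-2.39). With a minimum of 1 FPKM, 7 fibroblast markers were counted, 1 of them was called lower and the median went from 0.11 to -0.32. The part of fibroblasts in the matrix values was not tested.

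Signals that keep the basal and follicular compartments in place also contained falling genes. Wnt proteins act on neighbouring cells through Frizzled and Lrp receptors and, in the canonical branch, through beta-catenin and Lef1. Of 36 members in the Wnt list, 6 fell and none rose (median -0.48, 32 below 0): the ligands Wnt16, Wnt3a and Wnt6, the receptor Ror1, the receptor Lrp4 and the factor Lef1. Wnt16 went from 33.3 to 6.18 FPKM (-2.43 ± 0.60), Wnt3a from 13.02 to 3.87 FPKM (-1.75 ± 0.45) and Lef1 from 12.6 to 3.02 FPKM (-2.07 ± 0.51). Lrp4, which binds the antagonists sclerostin and Wise, went from 40.0 to 21.0 FPKM (-0.93 ± 0.28) and was the member with the smallest change among the 6. Wnt16, Wnt3a and Lef1 passed the adjustment over the OK loci, and Ror1, Wnt6 and Lrp4 did not. Wnt16 and Lef1 passed the centred adjustment too. With 5 FPKM required in both groups, 30 Wnt members were left, 3 of them called, and the median was -0.32. The BT levels of Wnt3a, Ror1 and Lef1 are under 5 FPKM. Of abundant members, Wnt4 had 74.1 and 41.1 FPKM (-0.85 ± 0.30) and the Wnt secretion factor Wls 73.0 and 72.7 FPKM.

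In the TGF-beta and BMP list, 3 of 29 fell and none rose, with a median of -0.20. With 5 FPKM required in both groups, the 3 calls stayed among 25 members and the median was -0.06. Id1 and Id3, inhibitors of bHLH factors and classical BMP targets, went from 111 to 48.7 FPKM (-1.19 ± 0.31) and from 134 to 57.9 FPKM (-1.21 ± 0.31). Tgfbi, a secreted protein named for its induction by TGF-beta, went from 126 to 41.3 FPKM (-1.60 ± 0.40). All 3 passed the adjustment over the OK loci, and Tgfbi alone passed the centred one (adjusted p of 0.0489, against 0.0958 for Id1 and 0.0784 for Id3). The BMP and activin antagonist Fst had 106 and 101 FPKM, the signal carriers Smad5 53.6 and 82.2 FPKM and Smad4 45.0 and 37.5 FPKM, and the receptor Bmpr2 39.9 and 45.1 FPKM, and none of these was called. Id2, of the same family as Id1, had 42.9 and 31.7 FPKM and was not called. Values for Id2 and for Id4 (57.7 and 8.89 FPKM, not called) were chosen after they were seen.

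Among transcription factors of the epidermis, 4 of 42 members were called (9.52%, against 1.89% of all members). Foxc1, Id1, Lef1 and Id3 fell and none rose (median -0.20). With 5 FPKM required in both groups, 37 members were left, 2 of them called lower, and the median was -0.19. Foxc1 passed neither of the other adjustments, and of the 4 only Lef1 passed the centred one. Besides Trp63, given above, the abundant members Tfap2a and Klf5 had 100.3 and 94.2 FPKM and 317 and 221 FPKM, with no call. Among the Krüppel-like factors, a list written after values were seen, all 11 members lay below 0. Klf2 fell from 15.8 to 2.44 FPKM (-2.70 ± 0.67), Klf6 from 197 to 65.9 FPKM (-1.58 ± 0.50) and Klf11 from 43.4 to 20.4 FPKM (-1.09 ± 0.37), while Klf4, a factor of barrier formation, had 138 and 84.7 FPKM without a call. Klf2 and Klf6 are also in the immediate early list. Of these 3 Klf2 alone passed the adjustment over the OK loci, and also the centred one.

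Single regulators outside these families also fell. Zbtb20, a repressor of the BTB zinc finger family, went from 13.3 to 0.870 FPKM (-3.94 ± 0.97). Cbx8, a Polycomb protein that reads methylated histone H3, went from 7.65 to 1.44 FPKM (-2.41 ± 0.66) and was the one called gene among 34 heterochromatin and Polycomb members. Sox6 went from 38.3 to 13.997 FPKM (-1.45 ± 0.50), the other 6 Sox genes being uncalled. Celf2, an RNA-binding splicing regulator, went from 9.16 to 1.43 FPKM (-2.68 ± 0.74). Zbtb20 and Cbx8 passed the adjustment over the OK loci, and Sox6 and Celf2 did not. Zbtb20 alone passed the centred one.

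The calls among guidance genes and growth factor ligands were all lower. Of 29 semaphorin, plexin, ephrin and Slit-Robo genes, 2 fell (6.90%, against 1.89% called over all members), and the median was -0.42. Sema3d, a secreted semaphorin, went from 23.2 to 7.97 FPKM (-1.54 ± 0.38), and Sema4c, a membrane semaphorin that signals through plexin B2, from 11.5 to 4.70 FPKM (-1.29 ± 0.37). Plxnb2 itself had 44.5 and 40.9 FPKM, Sema3c 52.6 and 35.3 FPKM, Epha4 31.9 and 38.6 FPKM and Sema3f 45.1 and 25.01 FPKM, with no call. Pdgfb, a ligand for the PDGF receptors of mesenchymal cells, went from 10.8 to 3.07 FPKM (-1.82 ± 0.58), and Gas6, the ligand of the Axl and Mer receptors, from 45.9 to 18.0 FPKM (-1.35 ± 0.36). Sema3d passed both other adjustments, Gas6 the one over the OK loci alone, and Sema4c and Pdgfb neither. Vegfa, the main vascular growth factor, had 21.6 and 19.98 FPKM and no call. None of 10 members of the EGF receptor family and its ligands was called, the most abundant being Epgn with 106 and 189 FPKM (0.83 ± 0.29).

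Immediate early genes, which switch on within minutes of growth factors, stress or the handling of tissue, were the list with the most calls. Of 33 members, 11 fell and none rose, 31 lay below 0 and the median was -0.77. The AP-1 subunits Fos, Fosb, Junb and Fosl2 went from 1120.2 to 365 FPKM (-1.62 ± 0.52), from 380.2 to 107 FPKM (-1.82 ± 0.61), from 266 to 96.0 FPKM (-1.47 ± 0.36) and from 72.2 to 35.2 FPKM (-1.04 ± 0.30). Cyr61, a secreted matrix protein and a target of YAP, went from 206 to 55.1 FPKM (-1.90 ± 0.47), and Ier2 from 176 to 71.5 FPKM (-1.30 ± 0.32). The others that fell were Rhob, Klf6, Maff, Zfp36l2 and Klf2. Ptgs2, the inducible cyclooxygenase, was one of the 2 members above 0, with 22.003 and 36.0 FPKM and no call. Egr1 had 885 and 290.3 FPKM (-1.61 ± 0.61), Jun 784 and 414 FPKM and Zfp36 929.9 and 565 FPKM, all 3 without a call. Of the 11, Junb, Cyr61, Ier2 and Klf2 passed the adjustment over the OK loci, and of these 4 all but Ier2 passed the centred one.

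Heat shock genes differed among themselves. Of 32 members 2 fell and none rose. The merged locus of Hspa1a and Hspa1b, inducible chaperone genes, went from 268 to 66.1 FPKM (-2.02 ± 0.52) and the co-chaperone Dnajb1 from 170.0 to 55.4 FPKM (-1.62 ± 0.40). Both passed the adjustment over the OK loci, and Dnajb1 alone the centred one. The list median was 0.09, against -0.10 for all members, and 18 of 32 lay above 0. Hspa8, the constitutive Hsc70, had 7624 and 1026 FPKM (-2.89 ± 1.80) without a call, and 3 short RNA genes are annotated inside its locus. Hsp90ab1 had 691 and 816 FPKM, the chaperonin subunit Tcp1 244 and 257 FPKM and the mitochondrial Hspa9 167 and 187 FPKM. None of 29 genes of the unfolded protein response was called (median 0.12), its most abundant members being Hspa5 (328 and 246 FPKM) and Hsp90b1 (297 and 243 FPKM). Without the immediate early and heat shock lists, 164 of the 177 calls were left, 135 lower and 29 higher.

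**Figure D2:**
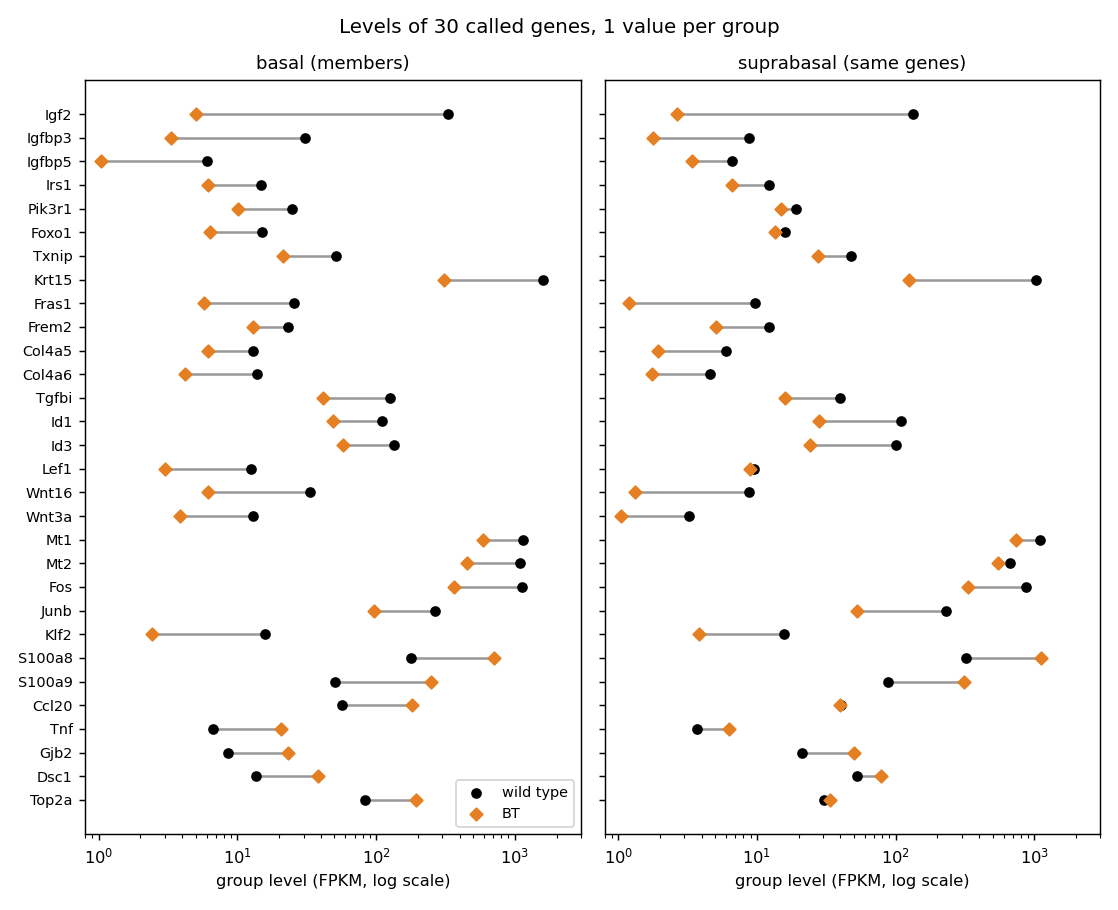
Group levels in FPKM (x axes, log scale) of 30 called genes named in the text (y axis) in basal cells, left, and in suprabasal cells, right. Black circles are wild type and orange diamonds BT, each the authors' 1 value per group with no error bar; in basal cells the 23 genes from Igf2 to Klf2 have the diamond to the left of the circle and the 7 from S100a8 to Top2a to its right.

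Both metallothionein genes and 4 genes of the mitochondrial matrix list fell. Mt1 went from 1150.5 to 595 FPKM (-0.95 ± 0.29) and Mt2 from 1099 to 449 FPKM (-1.29 ± 0.32). With Txnip they were the called members among 27 metallothionein and antioxidant genes (median -0.19). Gpx1 had 362 and 416 FPKM, Prdx2 123 and 79.4 FPKM, Sod1 105 and 93.7 FPKM and Txn1 73.8 and 76.6 FPKM, none called. Of 41 mitochondrial matrix enzymes and carriers, a list written after values were seen, none rose. Nnt, which makes mitochondrial NADPH, went from 24.3 to 11.8 FPKM (-1.04 ± 0.34), Idh2, another NADPH source, from 52.9 to 25.9 FPKM (-1.03 ± 0.31), the dicarboxylate carrier Slc25a10 from 15.4 to 5.71 FPKM (-1.43 ± 0.40), and Gfer, a sulfhydryl oxidase of the import pathway, from 39.5 to 19.1 FPKM (-1.05 ± 0.31). None of these 4 passed either of the other adjustments. Mt1 did not pass them either, while Mt2 and Txnip passed the one over the OK loci alone. The median of that list was 0.10, and abundant members such as Got2 (552 and 689 FPKM) and Slc25a5 (281 and 385 FPKM) were not called.

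Calls were few or absent in the large machines of the cell. Since 1.89% of all members were called, lists of this size hold few calls in any case. None of 81 nuclear-encoded genes of oxidative phosphorylation was called (median -0.01), nor any of 74 mitochondrial ribosomal protein genes (0.09). Of 75 cytosolic ribosomal protein genes 1 rose, Rps12 (27.4 and 58.8 FPKM, 1.10 ± 0.37), whose locus holds short RNA genes and whose call was lost under both other adjustments, and the median was -0.17. Proteasome genes leaned the other way: 28 of 35 members lay above 0, with a median of 0.27, above the upper quartile of all members (0.18), yet none was called. Psmb6, a catalytic subunit, had 166 and 199 FPKM and Psmb2 143 and 184 FPKM. Among 32 autophagy and lysosome genes 25 lay below 0 (median -0.30), again with no call.

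Chromatin and the cell cycle contributed single genes. Of 58 histone genes, 53 lay below 0 (median -0.38), and 2 fell. Hist1h4a went from 394 to 205 FPKM (-0.94 ± 0.30) and Hist1h2bn from 401 to 182 FPKM (-1.14 ± 0.39). Both have a second row that was not called, and histone genes of a cluster are near copies, so how their reads were divided is uncertain. Hist1h4d had 1436 and 1188 FPKM and Hist1h1e 789 and 554 FPKM. Of 45 mitosis genes, Top2a, which untangles chromosomes, rose from 83.2 to 196 FPKM (1.23 ± 0.30), and Ect2, the activator of RhoA in the dividing cell, fell from 32.0 to 15.97 FPKM. The proliferation marker Mki67 had 78.2 and 93.8 FPKM and Cdk1 90.7 and 64.7 FPKM. None of 42 S phase genes was called (median 0.04), with Pcna at 85.1 and 97.2 FPKM. Of 40 nuclear envelope members Tmem43 fell, and Lmna, which encodes lamins A and C, was at 564 and 536 FPKM (-0.07 ± 0.37). Top2a passed both other adjustments, and Hist1h4a, Hist1h2bn, Ect2 and Tmem43 passed neither.

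The genes that rose include alarm and defence genes of the epidermis. S100a8 and S100a9, which pair to form calprotectin, went from 178 to 704 FPKM (1.99 ± 0.49) and from 50.7 to 250.4 FPKM (2.30 ± 0.57), while the other 8 S100 members were not called. S100a11 had 3104 and 4023 FPKM and S100a10 361 and 392.2 FPKM. Defb6, a beta-defensin, went from 20.3 to 151 FPKM (2.90 ± 0.98), the T cell attractant Ccl20 from 56.9 to 180.3 FPKM (1.66 ± 0.47) and Tnf, an inflammatory cytokine, from 6.71 to 20.7 FPKM (1.63 ± 0.45). These were 3 of 19 members of the antimicrobial and cytokine list, and none of the 3 passed the adjustment over the OK loci, whereas S100a8 and S100a9 did. S100a8, S100a9, Ccl20 and Tnf passed the centred adjustment and Defb6 did not. Other members had lower BT values: Ccl27a, a chemokine that draws T cells to skin, had 742 and 272 FPKM (-1.44 ± 0.62) and Cxcl14 243 and 134 FPKM (-0.85 ± 0.30), with no call. Among cytokine receptors and JAK-STAT genes, Cntfr rose (7.53 and 16.1 FPKM), while Irf1 (119 and 52.4 FPKM, -1.18 ± 0.38) and the feedback inhibitor Socs3 (117 and 48.5 FPKM, -1.26 ± 0.33) fell. Of these 3, Socs3 passed the adjustment over the OK loci and none passed the centred one. The leukocyte list of 19 markers had 1 member, Cd74, with 5.79 and 5.02 FPKM, and the other 18 were under the minimum or not among the loci tested.

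Stress, barrier and junction lists also held rising genes. In the wound and stress list, 14 of 18 members lay above 0 and the median was 0.85, the highest of the lists with at least 10 members. With 5 FPKM required in both groups, the median was 0.65 over 14 members, 2 of them called. Among its 13 single-symbol loci it was 0.70, with 1 called. The called members were the gap junction gene Gjb2, which went from 8.49 to 23.2 FPKM (1.45 ± 0.36), and the merged locus of Gm9774 and the cornified envelope precursor Sprr1b, from 45.8 to 162 FPKM (1.82 ± 0.45). Stfa3, a stefin, had 11059.8 and 17990.4 FPKM and Krt17 586 and 896 FPKM, without a call. The barrier lipid list, with 27 members and a median of 0.30, had 3 rising genes and no falling one: Fa2h, which hydroxylates the fatty acids of ceramides (3.57 and 10.6 FPKM, 1.57 ± 0.49), Abca12, which loads lipids into lamellar granules (10.8 and 25.2 FPKM, 1.23 ± 0.32), and Elovl4, which makes very long fatty acids (34.7 and 69.1 FPKM, 0.99 ± 0.29). With 5 FPKM required in both groups, 23 barrier lipid members were left, 2 of them called, and the median was 0.20. The wild type level of Fa2h is under 5 FPKM. Dsc1, a desmosomal cadherin of differentiating cells, rose from 13.7 to 38.1 FPKM (1.48 ± 0.36) among 13 desmosome members. Gjb2, the Sprr1b locus, Abca12 and Dsc1 passed the adjustment over the OK loci, and these and Elovl4 the centred one. Fa2h passed neither.

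Genes of the cornified envelope, the protein shell of the outermost cells, went both ways. Cst6, an inhibitor of proteases in the outer epidermis, rose from 3.55 to 11.5 FPKM (1.69 ± 0.46), while Lor, the main envelope protein, fell from 17.2 to 3.18 FPKM (-2.44 ± 0.67) and Tchh, an envelope protein of hair sheaths, fell from 8.54 to 3.48 FPKM (-1.29 ± 0.35). Cst6 passed both other adjustments, Tchh the one over the OK loci alone, and Lor neither. The list median over 20 members was -0.73, and -0.10 with 5 FPKM required in both groups. Tgm5 was listed at 0.0218 FPKM in wild type and 221 in BT cells and still was not called (13.31 ± 17.45). Of 15 suprabasal marker genes 1 fell, Lor, and the median was -0.06. Their summed level, which includes the merged locus of Krt2, Krt5 and other keratins, was 23943 FPKM in wild type and 21155 in BT cells. That locus alone had 11677 and 6923 FPKM. Since it holds the basal keratin Krt5, the sum is not a measure of suprabasal genes alone. Krtdap was at 4173 and 6915 FPKM, Lgals7 at 2845 and 2724 FPKM, Krt10 at 2319 and 1601 FPKM and Krt1 at 1725 and 1749.7 FPKM. The part of suprabasal cells in the sort in these values was not tested.

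The other genes that rose are of varied kinds. Ly6g6c, a Ly6 family surface protein, went from 30.3 to 80.3 FPKM (1.41 ± 0.35), and the glutathione transferase Gstm5 from 62.1 to 157 FPKM (1.33 ± 0.43). Lzts1 went from 7.43 to 30.4 FPKM, Chic2 from 4.34 to 17.3 FPKM, Ceacam19 from 2.05 to 6.68 FPKM and Nucb2 from 12.4 to 25.5 FPKM. The receptor genes Niacr1 and Gpr56 went from 15.8 to 34.7 FPKM and from 54.3 to 98.9 FPKM, the nucleoside transporter Slc29a3 from 14.4 to 28.5 FPKM, and the X-linked Ammecr1 from 17.6 to 33.3 FPKM. Of these genes Ly6g6c alone passed either of the other adjustments, and it passed both. The processed pseudogenes Gm6166, which passed both, and Gm21399, which passed neither, also rose, and reads of a processed pseudogene can come from its parent gene.

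The largest changes had group levels far apart, and several sat on loci with other RNAs inside. Timm23, a subunit of the mitochondrial import channel, went from 12069.8 to 14.1 FPKM (-9.74 ± 2.40), and the transcript 2310014L17Rik, chosen after its values were seen, from 411 to 0.919 FPKM. Srrm2, a splicing scaffold, went from 102 to 2985 FPKM (4.87 ± 1.20). Each of these 3 loci holds at least 1 annotated short RNA gene, as does Igf2, and the locus of St7, which fell from 63.2 to 4.71 FPKM, holds 8. The calls of Timm23, 2310014L17Rik, Srrm2, Igf2 and St7 all passed both other adjustments. Over all members, 16.4% of called loci and 17.8% of the 9347 held such a gene. Without the loci that hold one, 148 calls were left, 124 lower and 24 higher. In suprabasal cells, Srrm2 was listed at 42121 and 46436 FPKM and Timm23 at 18.4 and 2.58 FPKM.

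Large falls without a short RNA gene inside were also found. Clec2d, a C-type lectin-like surface ligand, went from 319.8 to 11.95 FPKM (-4.74 ± 1.17), and the secreted C1qtnf1 from 29.6 to 0.505 FPKM (-5.87 ± 1.45). Cyp2f2, a cytochrome P450, went from 42.9 to 1.72 FPKM (-4.64 ± 1.32) and its suprabasal levels were 47.3 and 0.312 FPKM. Akr1e1, an aldo-keto reductase, went from 20.5 to 2.03 FPKM, and Slc27a3, of the fatty acid transport family, from 19.95 to 3.67 FPKM (-2.44 ± 0.60). Pls1, Klhl22, Fam189b, Pglyrp4 and Rgs3 also fell, with log2 ratios between -2.64 and -1.98. Limch1 and Cyp2w1, which do hold short RNA genes, fell by 2.07 and 2.04 on that scale. Clec2d, C1qtnf1 and Slc27a3 passed both other adjustments, Klhl22 and Limch1 the one over the OK loci alone, and Cyp2f2, Akr1e1, Pls1, Fam189b, Pglyrp4, Rgs3 and Cyp2w1 neither. The BT levels of C1qtnf1, Pls1, Klhl22, Zbtb20 and 2310014L17Rik were under 1 FPKM, where a small absolute difference moves the ratio much.

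Short non-coding RNAs were high in level and mostly lower in BT cells. Of 85 members of short RNA types, 60 lay below 0, the median was -0.70 and 4 fell. Rpph1, the RNA of RNase P, went from 3027 to 1458 FPKM (-1.05 ± 0.30), Rnu12, an RNA of the minor spliceosome, from 1843 to 540.3 FPKM (-1.77 ± 0.61), Scarna2 from 229 to 96.6 FPKM (-1.24 ± 0.31), and the fourth was Mir203. Scarna2 passed the adjustment over the OK loci, the other 3 did not, and none of the 4 passed the centred one. The most abundant of all members, Rn7sk, which holds back transcription elongation, had 45303 and 20023 FPKM (-1.18 ± 0.80), and Rmrp and Rny1 had 33732 and 16886 FPKM and 23364 and 15128 FPKM, none of them called. The 492 processed pseudogenes had a median of 0.09. Of 12 loci that name a microRNA, Mir203 was called and 11 were not, among them the merged Mir17 cluster with 14.5 and 3.55 FPKM and the merged Mir205 locus with 40.2 and 21.4 FPKM. FPKM of such short transcripts depend strongly on the fragment length, which is not given in the sources used here.

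Some called genes are neighbours. With gaps of at most 200 kb, 21 called loci formed 8 clusters, of which 6 held falling loci alone, 2 went both ways and none held rising loci alone. On chromosome 11, Irf1, Gm12216, Slc22a4 (a cation transporter) and P4ha2 fell within 361.7 kb, and all 6 members in that span lay below 0, the uncalled Gm17334 overlapping Irf1. None of these 4 calls passed the adjustment over the OK loci or the centred one. Mt2 and Mt1 fell within 7.7 kb, and Col4a6 and Col4a5 within 524 kb of the X chromosome. On chromosome 3, S100a8 and S100a9 rose while Pglyrp4, a peptidoglycan recognition protein, fell from 28.3 to 5.33 FPKM within the same 72.4 kb. On chromosome 17, Tnxb and the Hspa1a and Hspa1b locus fell while Ly6g6c and Tnf rose within 542.2 kb, a span with 24 members. By chromosome, the extremes among the autosomes were chromosome 13, where 15 of 378 members fell and none rose (3.97% called), and chromosome 18, where 1 member rose and none fell (0.402% called), against 1.89% over all members. Among protein-coding genes over 200 kb long, 19 of 509 fell and none rose (3.73% called), while under 5 kb 24 of 591 fell and 7 rose (5.25%).

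**Figure D3:**
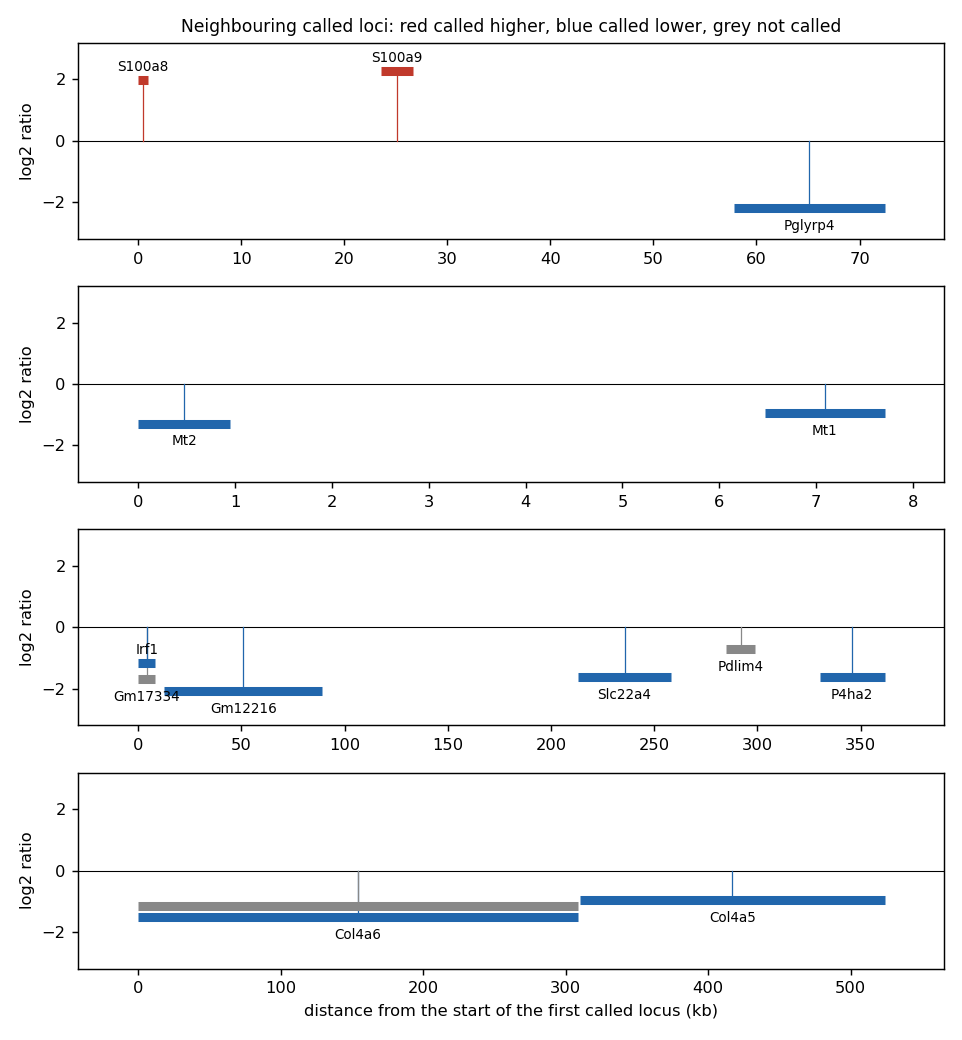
Log2 ratio (y axes) of the members in 4 groups of neighbouring called loci, placed by distance in kb from the start of the first (x axes); each bar spans a locus, red called higher, blue called lower and grey not called. S100a8 and S100a9 lie above 0 and Pglyrp4 below 0, and every bar of the other 3 groups lies below 0.

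The groups also differed in sex-linked RNA. The merged locus of Xist, the RNA of the inactive X chromosome, was at 0.258 FPKM in wild type and 107.9 in BT cells (8.71 ± 2.75). It was called higher, a call lost under both other adjustments, and its wild type level is under 1 FPKM. In suprabasal cells the same locus had 0.236 FPKM in wild type and 103 in BT. The Y-linked genes Ddx3y, Eif2s3y, Kdm5d and Uty were measured in both groups, summed to 137.6 FPKM in wild type and 72.3 in BT cells, and were not called. Of X-linked genes that escape inactivation, Ddx3x had 414 and 422 FPKM, Kdm5c 24.02 and 24.3 FPKM, Kdm6a 24.4 and 21.5 FPKM and Eif2s3x 5.77 and 9.94 FPKM (0.78 ± 0.40), none of these 4 called. The median of the 307 X-linked members was 0.02, against -0.10 for 9024 autosomal ones. A difference in sex between the groups cannot be told apart from the genotype here. Without the X and Y chromosomes, 171 calls were left, 144 lower and 27 higher.

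Markers of other cells were sparse. No endothelial marker of 11 and no erythroid marker of 9 was a member. Of 10 melanocyte markers 1 was, Dct, with 4.00 and 6.95 FPKM, and of 14 muscle markers 1 was, Tnni2, which fell from 9.44 to 1.08 FPKM (-3.13 ± 0.96), a call lost under both other adjustments. Schwann cell markers had 2 members of 9 and adipocyte markers 2 of 8, none called, with summed levels of 31.5 and 28.0 FPKM for the former and 12.2 and 8.93 for the latter, in wild type and BT. In 8 sebaceous gland members the summed level was 117 FPKM in wild type and 157 in BT cells, with no call. Of 6 hair follicle members 1 fell, Tchh.

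The same genes were then read in suprabasal cells, where 175 of the 177 called loci had a tested row. Of the basal falls, 131 of 146 also had the lower level in BT in that layer, and of the rises 25 of 29 the higher, as a description with no test of overlap. Over the 9179 members tested in both layers, 59.1% had the lower and 40.9% the higher BT level in suprabasal cells. In that layer 27 of the 175 were called, and 51 of the 9179 (0.556%). A two-sided Wald test then asked whether the 2 layers' log2 fold changes differed (suprabasal less basal), its p-values being adjusted by Benjamini-Hochberg over 10583 loci. It rests on the p-values of the authors' deposited tables, since no test over samples can be run on group values. 4 loci in all passed (0.0378%), and 3 of them were among the basal calls. The fourth, Rusc2, was under the minimum of 5 FPKM in basal cells.

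Cst6 rose in basal cells (3.55 and 11.5 FPKM) and had the lower BT level in suprabasal cells (104 and 45.5 FPKM), a difference of -2.89 ± 0.59 (adjusted p of 0.00477, Wald test over all loci). Celf2 fell in basal cells and had 14.1 and 31.3 FPKM in suprabasal cells, a difference of 3.84 ± 0.89 (adjusted p of 0.0417). The merged locus of 9430008C03Rik, Gm23925 and Gm26003 fell from 60.1 to 15.5 FPKM in basal cells and had 19.8 and 417 FPKM in suprabasal cells (6.35 ± 1.21, adjusted p of 0.00167). The basal calls of Celf2 and of this locus passed neither other adjustment, and both loci hold short RNA genes. At an unadjusted p under 0.05, 38 of the 175 differed, as did 326 of all 10583 loci (3.08%). The 175 were chosen for a basal change, so their share is read against nothing. For Igf2 the suprabasal levels were 135 and 2.64 FPKM, for Krt15 1025 and 124 FPKM and for S100a8 324 and 1126 FPKM, with no difference past the threshold. For Lef1 they were 9.48 and 8.86 FPKM and for Ccl20 40.4 and 40.0 FPKM, and these differences between the layers did not pass either.

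**Figure D4:**
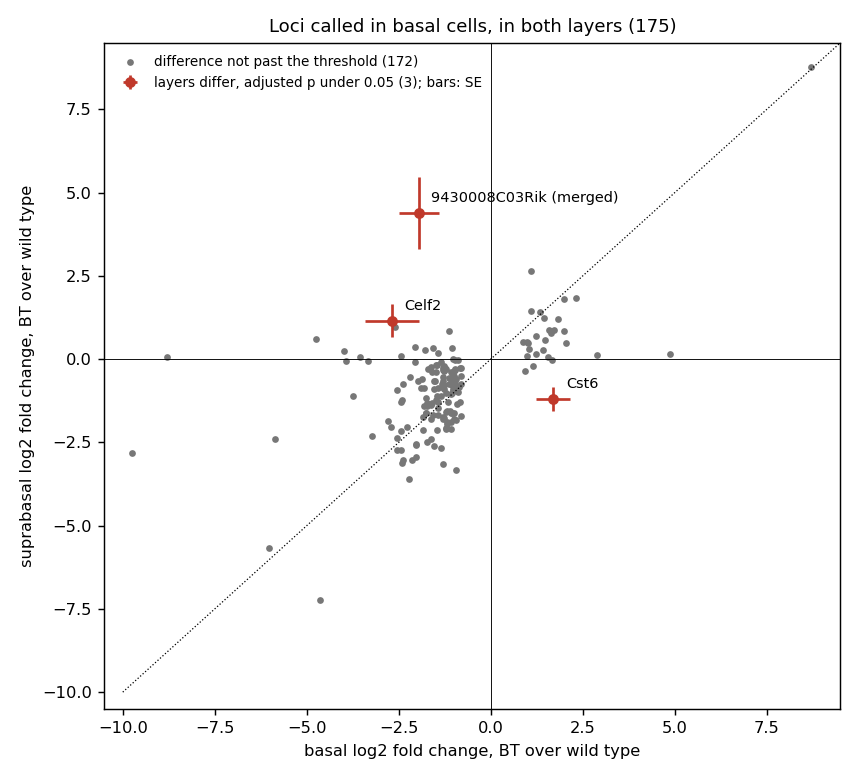
Log2 fold change of BT over wild type in basal cells (x axis) and in suprabasal cells (y axis) for the 175 loci called in basal cells and tested in both layers, with a dotted line of equal change. Red points with SE bars are Cst6, Celf2 and the merged 9430008C03Rik locus, whose changes differed between the layers; grey points are the other 172, most of them below 0 on both axes.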

How the data were processed

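RNA of sorted basal and suprabasal skin keratinocytes was made into strand-specific libraries with a Nugen Ovation kit from 10 ng, per the labels' protocols. TopHat, Cufflinks and build mm10 are named in the submitters' processing notes, without versions. The authors deposited 1 level per group, read as FPKM from the table's form, since no unit is given. The authors also deposited the log2 fold change, a test statistic (a score, not used further), p-values and q-values.

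The log2 fold change recomputed from the levels differed from the deposited one by at most 3.14e-05. The implied SE is its size over the normal quantile of the two-sided p-value. A pseudocount of 1 FPKM was used in the log2 ratio, and expressed genes had at least 1 FPKM. The layers were treated as independent in the Wald test, although title stems recur between them. The computation of the SE, the adjustment and the Wald test was checked on simulated data with normal errors and independent layers. That check does not show whether these assumptions hold for the data used here. Python 3.11.15, pandas 2.3.3 and SciPy 1.17.1 were used.

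Named genes are all called single-symbol genes that rose, the 25 largest falls without predicted and Rik models, called list members, up to 4 abundant uncalled members per list, the 15 highest genes and the markers. Bcam, Id2, Id4, Igf1r, Igf2r, Insr, Ptgs2, Klf4, Tgm5, Pcna, Kdm5c, Kdm6a, Eif2s3x, Col6a1, Rusc2, Gm12216 and the short RNA and microRNA loci other than Mir203 were chosen after their values were seen. Members and the 70 gene lists, 9 of them added last, were chosen with earlier results of these data known.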

Additional observations from a re-analysis of the deposited data

Results flagged for a closer look

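In 3 of the loci called in basal cells, the change between wild type and BT cells differed between the layers by the two-sided Wald test adjusted over all loci, and in each it went opposite ways. Another locus that passed, Rusc2, was under the minimum level in basal cells. The test rests on the deposited p-values, since group values allow no test over samples. The merged locus of 9430008C03Rik, Gm23925 and Gm26003, which holds a short RNA gene, had a log2 fold change of -1.96 ± 0.54 in basal and 4.40 ± 1.08 in suprabasal cells (difference 6.35 ± 1.21, adjusted p of 0.00167). Cst6, the cystatin of the outer epidermis, had 1.69 ± 0.46 and -1.19 ± 0.36 (difference -2.89 ± 0.59, adjusted p of 0.00477). Celf2, the splicing regulator, whose locus holds 2 short RNA genes, had -2.68 ± 0.74 and 1.15 ± 0.49 (difference 3.84 ± 0.89, adjusted p of 0.0417).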

How the results depend on the processing

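The 177 calls (29 higher, 148 lower) became 43 (9 and 34) at a q under 0.01, 286 (45 and 241) at a q under 0.1, 62 (11 and 51) with the p-values adjusted over the loci of status OK, and 40 (14 and 26) with centred fold changes. With 5 FPKM required in both groups, 120 were called and 96 of them were lower. Under a minimum of 1 or none, 186 were called, under 10 FPKM 152, and among single-symbol loci 172. Loci with a log2 ratio past 1, 174 higher and 627 lower, became 65 and 254 with a pseudocount of 5, 114 and 398 with a minimum of 10 FPKM, and 82 and 267 with 5 FPKM in both groups. Of 78 loci called in the lists, 36 were left after adjustment over the OK loci. Of 113 named called genes, 46 passed that adjustment and 32 the centred one. The 3 differences between layers also passed with each layer centred on the median of its expressed genes. Celf2 was then near the threshold (adjusted p of 0.0490, Wald test). A minimum of 5 FPKM in the higher group of both layers could not remove them, since their levels lie above it. The median of the fibroblast list changed sign, from 0.11 to -0.32, with a minimum of 1 FPKM. The removal of short RNA loci, of the sex chromosomes and of the stress lists was chosen after seeing the data. No paired analysis was possible because the tables hold 1 value per group, and for the same reason no sample could be left out. Depth is unknown, so no limit from it can be given.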
